A study of Saccharomyces cerevisiae with 7 samples.

Results

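Transcript levels in sth1-3 cells of budding yeast, Saccharomyces cerevisiae, were compared with those in wild type cells after 2 h at 37C. The members are the 2 arrays titled sth1-3 at 37C and the 2 titled wild type at 37C, which make up 4 of the 7 arrays of the study. They were chosen by their titles, with earlier results of these data known. The gene lists used below were also written with such results known, so the shares given for them are not independent of these data. The sth1-3 cells belong to strain Y4343, of mating type alpha, with the temperature-sensitive allele sth1-3ts and a tagged Scc2 (Scc2-Pk9::TRP1). The wild type cells belong to strain YK700, of mating type a, with GAL, psi+ and can1-100, and with the auxotrophic markers ura3-52, trp1-1 and ade2-1, besides leu2-3, 112 and also his3-11,15. The other 3 arrays held scc2-4 cells at 37C (2 arrays, strain Y4251, MATa, scc2-4, Scc1-Pk9::TRP1 and Sth1-9myc::URA3) and wild type YK700 at 25C (1 array). Cultures in YP medium with 2% glucose were shifted from 25C to 37C when their OD600 was 0.25. The 2 compared groups therefore differ at least in the STH1 allele, in the mating type and in the tag on Scc2 with its TRP1 marker. The parts of these in a difference cannot be told apart. Each genotype is represented by 1 strain.

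Sth1 is the ATPase of RSC, an essential and abundant chromatin remodeller that slides and evicts nucleosomes. RSC helps to keep the promoters of many genes free of nucleosomes, among them genes for ribosomal proteins and genes read by RNA polymerase III. It is also known to help the Scc2/Scc4 complex load cohesin onto chromosomes. A temperature-sensitive allele leaves the gene in place and makes the protein fail at the high temperature, so the level of the STH1 transcript does not check the label.

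The array carries probe sets of S. cerevisiae and of the fission yeast Schizosaccharomyces pombe, and the deposited values are log2 signals. The background level of an array was set at the 95th percentile of its S. pombe signals and lay at 9.98 to 10.07 on the 4 arrays. Of the 5449 S. cerevisiae genes, 4443 were above it on none of the 4 arrays and 149 on all 4. The values of sth1-3 replicate 1 stood apart before any gene was compared. On that array the difference between 2 probe sets of the 25S ribosomal RNA was 3.75, against 0.36 on sth1-3 replicate 2 and 0.85 and 0.91 on the wild type 37C arrays. Its actin control probe sets averaged 10.45, against 8.60 to 9.16 on the other 3, and its hybridisation controls averaged 11.92, against 11.31 to 11.68. In the ribosomal RNA and actin controls it lay with the wild type 25C array and scc2-4 replicate 1, and these 3 arrays are called the 3-array set below. Temperatures follow the titles here: the series' design description has all strains at both temperatures, and the protocol given for the 25C array describes the shift as for the other arrays. Across genes, sth1-3 replicate 1 correlated with the wild type 25C array at r = 0.917 and with its own replicate at 0.757, where genes are not independent replicates. The 2 sth1-3 arrays were over 1 log2 unit apart in 1057 genes, and the 2 wild type 37C arrays in 164. By the same measure sth1-3 replicate 2 stood apart from wild type replicate 1 in 75 genes and from wild type replicate 2 in 301. For this reason genes and list medians are given by sth1-3 array, and below a pair of values stands for replicate 1 and then replicate 2.

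No gene passed the threshold between sth1-3 and wild type (0 of 5449 genes at an adjusted p under 0.05, 0%, limma). Before adjustment, p was under 0.05 in 206 genes (3.78%), of which 112 were higher in sth1-3 (2.06%) and 94 lower (1.73%). That count was 114 without wild type replicate 1, 26 without wild type replicate 2, 46 without sth1-3 replicate 1 and 1054 without sth1-3 replicate 2, and in each case 0 genes passed after adjustment. Both sth1-3 arrays lay on the same side of both wild type arrays, called no overlap here, in 2005 genes (36.8%), with sth1-3 higher in 982 (18%) and lower in 1023 (18.8%). The median gene differed by 0.03 log2 units, by 0.11 on sth1-3 replicate 1 and by -0.06 on replicate 2. A fit with the array set as a term called 10 genes (0.184%), 9 higher and 1 lower. They were 7 reading frames of Ty retrotransposons, PMA1 and YER138W-A higher, and YLR154C-H lower. Neither wild type 37C array is in the 3-array set, so sth1-3 replicate 1 has no wild type 37C array within its set. The set shift is taken from the sth1-3 and scc2-4 pairs, and the differences rest mostly on sth1-3 replicate 2. These calls are therefore not independent of the fits of replicate 2 alone. In that fit nearly all genes share 1 common spread, and its p-values are too small for the more variable ones. The adjusted p of each gene named below was 0.824 or more in the fit without that term.

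**Figure D1:**
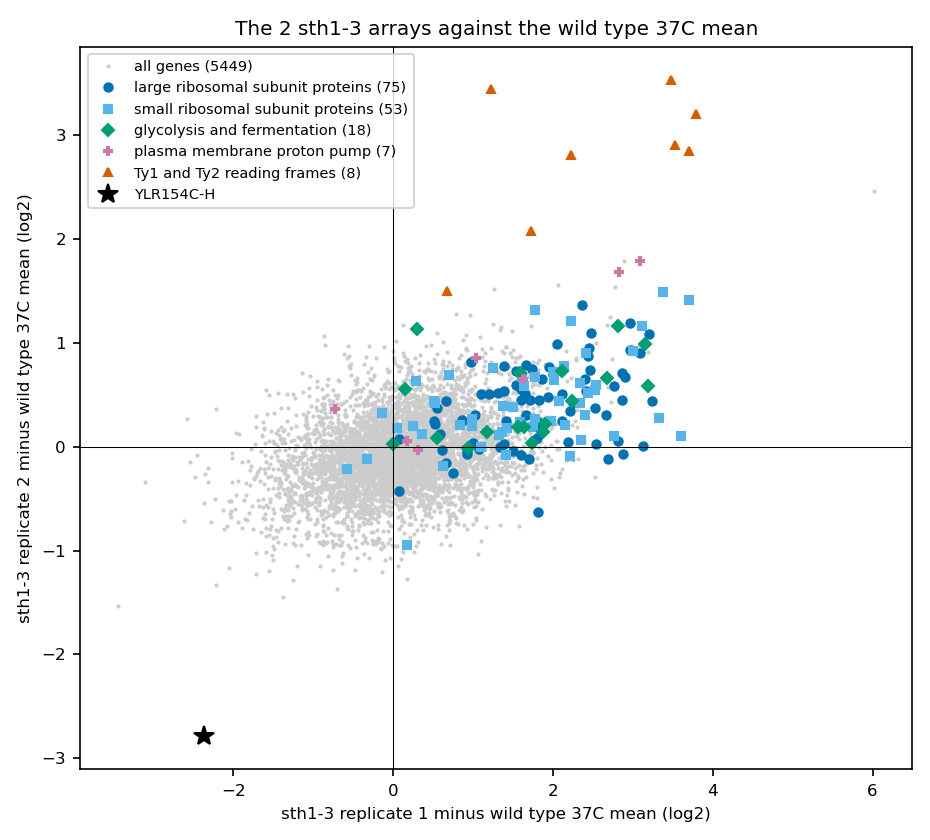
Each point is a gene, placed by its log2 signal on sth1-3 replicate 1 minus the wild type 37C mean (horizontal axis) and by the same difference for replicate 2 (vertical axis), with 4 gene lists, the Ty reading frames and YLR154C-H marked. The Ty reading frames lie high on both axes and YLR154C-H low on both, whereas the ribosomal protein and glycolysis genes spread along the horizontal axis, with medians of 1.69 to 1.76 on replicate 1 and of 0.32 to 0.42 on replicate 2.

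STH1 itself measured 8.74 and 9.05 in sth1-3 and 9.35 and 9.70 in wild type. Both sth1-3 arrays were below both wild type arrays, and all 4 values were under the background level. The mean difference was -0.63 ± 0.34 (SE of the fit, n = 2 arrays a group). It lay between 9.14 and 9.53 on the other 3 arrays.

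The other subunits of RSC were mostly dim too. Of the 17 subunit genes listed, 16 were measured and 1 of them, RSC8, was above background on all 4 arrays. RSC8, one of the core subunits, measured 11.01 and 10.73 in sth1-3 and 10.90 and 11.02 in wild type, and the groups overlapped. Including STH1, 6 genes were lower in sth1-3 without overlap (37.5%, against 18.8% of all genes) and 1 was higher (6.25%, against 18%). RSC1, a bromodomain subunit, measured 8.17 and 9.15 in sth1-3 and 9.64 and 9.55 in wild type. Its relative RSC2 measured 8.99 and 8.56 against 9.19 and 9.08, and another annotated gene, YLR358C, overlaps it. RSC4, a subunit whose bromodomains bind acetylated histone H3, measured 6.86 and 7.47 against 7.86 and 8.50. In these 3 genes the gap between the groups was narrower than the distance between some arrays of 1 group. RSC6 (9.72 and 9.56 against 9.91 and 10.08) and SFH1, the Snf5 relative of the complex (8.45 and 8.74 against 8.76 and 9.04), were the others that were lower. RSC3, a zinc cluster protein that binds DNA in promoters, was the one that was higher, at 8.48 and 7.73 against 7.44 and 7.66. The median difference of the 16 genes was -0.07, against 0.03 for all genes, and it was -0.10 on replicate 1 and -0.18 on replicate 2. The sister remodeller SWI/SNF had a median of -0.36 over 9 subunits, with -0.35 on replicate 1 and -0.16 on replicate 2, and 2 of the 9 were lower without overlap (22.2%, near the 18.8% of all genes).

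**Figure D2:**
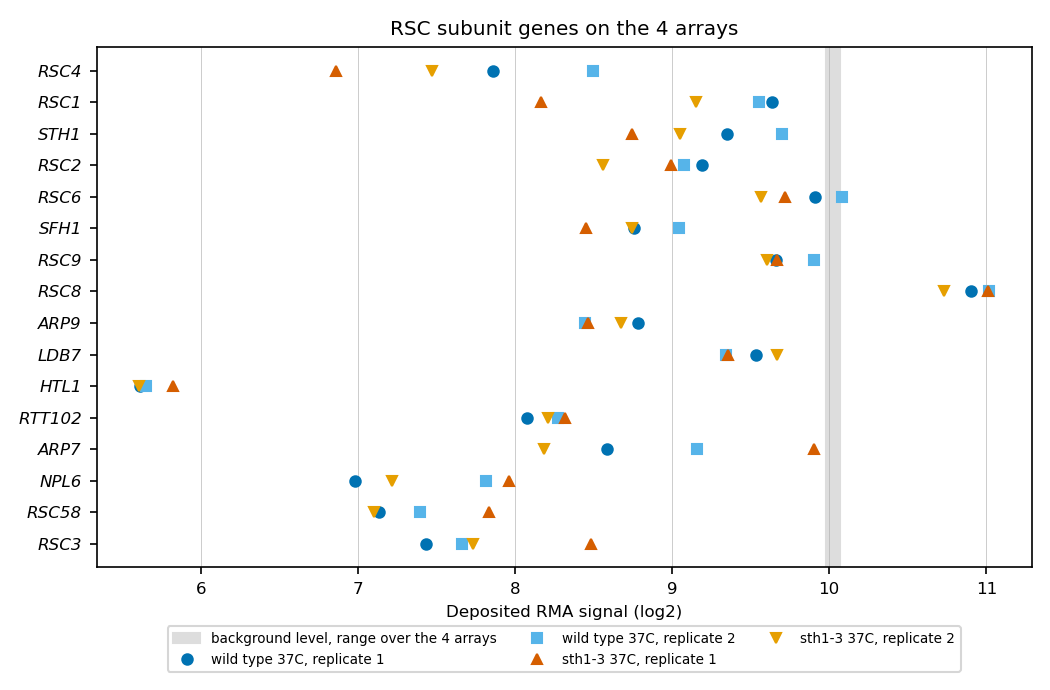
Deposited log2 signal (horizontal axis) of the 16 measured RSC subunit genes on the 2 wild type and 2 sth1-3 arrays at 37C, with the background level shaded. STH1 lies at 8.74 and 9.05 in sth1-3 and at 9.35 and 9.70 in wild type, and RSC8 is the gene that lies above background on all 4 arrays.

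The cohesin loader was measured with its partner complex. SCC2, whose protein is tagged in the sth1-3 strain, measured 7.50 and 7.66 in sth1-3 and 7.25 and 7.74 in wild type, and no array was above background. SCC4 was above background on all 4 arrays, at 11.56 and 10.72 in sth1-3 and at 10.51 and 10.17 in wild type. The groups did not overlap, yet the value of replicate 1 was close to that of scc2-4 replicate 1 (11.52), an array of the same set. Over the 11 genes of cohesin and its loader, 3 were higher and 3 lower without overlap (27.3% each, against 18% and 18.8% of all genes), and the medians were 0.0054 and -0.13. PDS1, the securin that holds separase inactive, measured 10.44 and 11.19 in sth1-3 and 11.20 and 11.56 in wild type.

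Reading frames of the retrotransposons Ty1 and Ty2 gave 6 of the 12 widest gaps higher in sth1-3, among genes above background on both arrays of a group. Ty1 and Ty2 are mobile elements that copy themselves through RNA, and their TYA and TYB frames encode the coat protein and the polymerase proteins. Of the frames listed, 8 have a probe set, each marked as shared between near-identical copies, and no value can be given to 1 locus. All 8 were higher in sth1-3 without overlap (100%, against 18% of all genes), and the median difference was 2.87, with 2.85 on replicate 1 and 2.88 on replicate 2. YDR261W-B measured 11.64 and 11.05 in sth1-3 and 8.20 and 7.50 in wild type. Both sth1-3 arrays were above background and neither wild type array was, which makes it at least 2.50-fold higher. Here "at least" sets the sth1-3 mean against the background level of the wild type arrays, since a signal under that level gives only a bound. It bounds the difference of means, and where replicate 1 is the higher sth1-3 array, replicate 2 alone would give less. YDR261C-D measured 11.20 and 10.35 against 8.19 and 6.80, at least 1.68-fold higher. YDR316W-B measured 11.26 and 10.65 against 8.25 and 7.23, at least 1.90-fold higher. These 3 frames were 0.59 to 0.85 log2 units apart between the sth1-3 arrays and 0.71 to 1.39 apart between the wild type arrays.

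The remaining 5 Ty frames were higher in sth1-3 as well. YBL100W-B measured 10.05 and 10.12 in sth1-3, just above background, against 6.76 and 6.40 in wild type. YBL100W-A, which overlaps it in the annotation, measured 10.66 and 11.24 against 8.89 and 7.96. YAR010C measured 12.11 and 12.47 against 10.84 and 9.94, and it was 3.74-fold higher (difference 1.90 ± 0.40, SE). In YAR009C replicate 2 was far higher than replicate 1, at 8.91 and 11.13 against 8.53 and 6.82, so that replicate 1 lay near the wild type arrays. YBL005W-A had the same order, at 9.18 and 10.01 against 8.64 and 8.38, and was above background on 0 wild type arrays and 1 sth1-3 array. In the fit with the set term, 7 of the 8 were called by limma, with differences of 1.87 to 2.84 and adjusted p-values between 1.80e-07 and 0.00262. The other, YBL005W-A, had an adjusted p of 0.831 in that fit.

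The wild type 37C arrays were the low ones in these frames. Against their mean, the 8 frames had medians of 4.13 and 2.03 on the scc2-4 arrays and of 3.14 on wild type at 25C. All these medians share the same 2 wild type arrays. Wild type replicate 2 lay below replicate 1 in each of the 8, and the median difference was 3.44 without wild type replicate 1 and 2.32 without replicate 2. Set directly against scc2-4, the frames had a median difference of -0.05. YER138W-A and YDR034C-A, small annotated genes that lie next to Ty reading frames, were named after their values were seen. YER138W-A measured 11.99 and 8.44 in sth1-3 and 5.97 and 5.98 in wild type, so its level above background rests on replicate 1. YDR034C-A measured 10.75 and 9.65 against 8.37 and 7.36.

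YLR154C-H was the gene with the widest gap in the opposite direction. It is a small reading frame of the ribosomal DNA whose annotated span overlaps RDN5-2, a gene of the 5S ribosomal RNA, and its probe set is marked as shared. It measured 9.45 and 9.03 in sth1-3 and 11.67 and 11.96 in wild type. Neither sth1-3 array was above background and both wild type arrays were, so it was at least 3.49-fold lower, with a difference of -2.58 ± 0.55 (SE). The sth1-3 arrays were 0.42 log2 units apart and the wild type arrays 0.29. In the fit with the set term the difference was -2.23 (adjusted p = 9.79e-05, limma). It measured 9.55 and 11.37 in scc2-4 and 11.52 on the wild type 25C array, so within the 3-array set 2 mutant arrays were low and the wild type array was high. The labelled cDNA was double-stranded, so signal from either strand of this region could not be told apart. Of the 4 measured frames of the ribosomal DNA, YLR154C-H and RRT15 were lower in sth1-3 without overlap (50%, against 18.8% of all genes). On replicate 2, RRT15 was only 0.15 below the nearest wild type array, and YLR162W lay between the wild type arrays. RRT15 measured 8.75 and 10.84 in sth1-3 and 10.99 and 11.21 in wild type, and YLR162W 9.66 and 10.17 against 10.14 and 10.23. Over the 4 frames the medians were -1.44 and -0.17 on the 2 sth1-3 arrays.

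**Figure D3:**
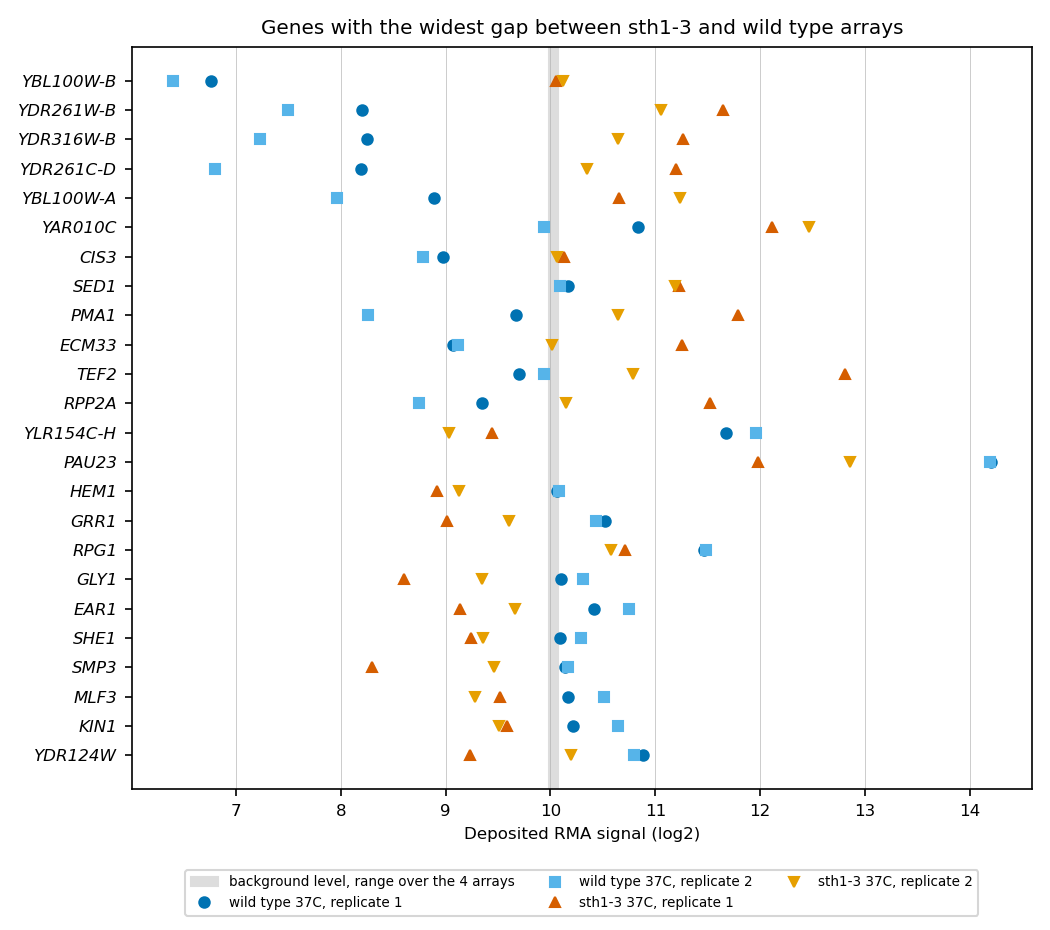
Deposited log2 signal (horizontal axis) on the 4 arrays of the 12 genes with the widest gap higher in sth1-3 (upper rows) and the 12 with the widest gap lower (lower rows), among genes above background on both arrays of a group. In every row the 2 sth1-3 points lie on the same side of the 2 wild type points, a property by which the genes were chosen. In YLR154C-H the sth1-3 arrays lie at 9.45 and 9.03 and the wild type arrays at 11.67 and 11.96.

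PMA1 encodes the plasma membrane proton pump, which uses ATP to export protons and drives nutrient uptake. It measured 11.79 and 10.65 in sth1-3 and 9.67 and 8.26 in wild type, and the groups did not overlap. PMA1 was above background on both sth1-3 arrays and neither wild type array. It was at least 2.29-fold higher in the mean, with a difference of 2.25 ± 0.64 (SE). In the fit with the set term the difference was 1.62 (adjusted p = 0.0323, limma). On scc2-4 it measured 11.37 and 9.99 and on the wild type 25C array 11.40, so the 3-array set was high in it. PMP2, a small proteolipid bound to the pump, measured 11.23 and 10.26 in sth1-3 and 10.12 and 9.10 in wild type. Its relative PMP1, named after its values were seen, measured 10.15 and 8.86 against 7.19 and 6.94. In each of the 3 genes replicate 1 was the higher sth1-3 array and both exceeded both wild type arrays. Of 7 genes listed for the pump and its control, 4 were higher without overlap (57.1%, against 18% of all genes) and 0 lower, and the median was 1.03 on replicate 1 and 0.65 on replicate 2.

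Among genes above background on both arrays of a group, cell wall genes gave 2 of the 12 widest gaps higher in sth1-3. ECM33, whose protein is anchored to the cell surface and needed for wall structure, gave another. CIS3 and ECM33 passed that filter through the sth1-3 arrays only. PMP1, YER138W-A, HEM12 and YDR034C-A, which did not pass it, had wider gaps than SED1, CIS3 and ECM33. SED1, a major anchored wall protein of stressed and resting cells, measured 11.22 and 11.19 in sth1-3 and 10.17 and 10.09 in wild type. The sth1-3 arrays were 0.036 apart and the wild type arrays 0.073, and the difference was 1.07 ± 0.38 (SE). The 2 sth1-3 arrays gave nearly the same value of SED1 although they belong to different sets, and scc2-4 gave 11.66 and 10.72. CIS3, a wall mannoprotein of the Pir family, measured 10.13 and 10.06 against 8.97 and 8.78. ECM33 measured 11.25 and 10.01 against 9.07 and 9.12, with replicate 2 at the background level. CCW12, another wall mannoprotein, measured 12.45 and 11.52 against 10.66 and 10.75, a 2.43-fold difference. BGL2, a glucanase of the wall, was closer, at 10.35 and 10.10 against 9.04 and 9.67. Over 40 wall genes 19 were higher without overlap (47.5%, against 18% of all genes) and 5 lower (12.5%, against 18.8%). The median difference was 0.49, with 0.65 on replicate 1 and 0.25 on replicate 2, and 0.17 in the fit with the set term. On replicate 2 alone 24 of the 40 were above both wild type arrays (60%, against 27.6% of all genes) and 10 below both (25%, against 36.5%). YGP1, a secreted glycoprotein that is made when nutrients run short, had one of the 10 smallest p-values, at 10.19 and 9.73 in sth1-3 and 8.59 and 8.95 in wild type.

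Ribosomal proteins form the largest group of genes that measured higher in sth1-3, and most of that difference lay on replicate 1. Of 75 measured genes of the large subunit, 50 were higher without overlap (66.7%, against 18% of all genes) and 0 lower (against 18.8%). The median difference was 1.08 for all 75, with 1.74 on replicate 1 and 0.42 on replicate 2. Small subunit genes gave 33 of 53 higher without overlap (62.3%, against 18%), 0 lower and a median of 1.07, with 1.76 and 0.32 on the 2 arrays. Few of these genes had a signal above background outside replicate 1. For the large subunit, 49 genes were above background on sth1-3 replicate 1 and 9 on replicate 2, against 4 and 5 on the wild type arrays. The array set moved with these lists. Against wild type at 37C, large subunit genes had medians of 1.43 and 0.0013 on the scc2-4 arrays and of 1.62 on wild type at 25C. In the fit with the set term their median difference was 0.31, that of the small subunit 0.36, and 0 genes of either list were called.

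Single ribosomal protein genes followed that order. RPP2A, an acidic protein of the ribosomal stalk, measured 11.52 and 10.15 in sth1-3 and 9.35 and 8.74 in wild type. It was at least 1.75-fold higher in the mean, with replicate 2 close to the background level. RPL16B measured 11.19 and 10.32 against 9.29 and 9.78. RPS29A measured 11.59 and 10.54 against 9.98 and 9.93. In all 3 genes replicate 1 lay 0.87 log2 units or more above replicate 2, and both lay above wild type. RPL41A, whose probe set is marked as shared, measured 12.23 and 10.21 against 9.75 and 8.80. RPL24B measured 11.90 and 10.64 against 10.12 and 10.25, a 2.12-fold difference. RPS15 overlapped between the groups, at 11.31 and 10.11 against 9.81 and 10.17. RPS8A and RPS29B had a low wild type replicate 2 instead: RPS8A measured 11.22 and 11.15 against 11.18 and 10.24, and RPS29B 10.57 and 10.56 against 10.52 and 9.22. On replicate 2 alone, 50 of the 75 large subunit genes (66.7%) and 36 of the 53 small subunit genes (67.9%) were above both wild type arrays, against 27.6% of all genes.

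Genes that act beside the ribosome differed by less. For ribosome biogenesis 27 of 60 genes were higher without overlap (45%, against 18% of all genes) and 3 lower (5%, against 18.8%), with medians of 0.50 and 0.16 on the 2 sth1-3 arrays. The 10 listed regulators of ribosomal protein genes were lower in the median, at -0.49 and -0.30, and 5 were lower without overlap (50%, against 18.8%). Mitochondrial ribosomal proteins, encoded by another set of nuclear genes, had medians of 0.10 and -0.08 over 69 genes, with 16 higher without overlap (23.2%) and 11 lower (15.9%), near the 18% and 18.8% of all genes. MRPS12 was higher among them, at 11.07 and 10.91 against 10.52 and 10.17, and MRP20 lower, at 8.71 and 9.82 against 10.12 and 10.30. Of 21 genes listed for RNA polymerase III, 4 were higher without overlap (19%, near the 18% of all genes) and 2 lower (9.52%), and 0 were above background on any of the 4 arrays.

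Translation factors lay on both sides. TEF2, one of the genes for elongation factor eEF1A, measured 12.81 and 10.79 in sth1-3 and 9.70 and 9.94 in wild type, at least 3.42-fold higher, with a probe set marked as shared. Replicate 1 lay 2.02 log2 units above replicate 2, so that bound, taken on the mean, rests mostly on replicate 1. RPG1, the largest subunit of initiation factor eIF3, measured 10.71 and 10.57 against 11.47 and 11.49. The arrays of a group were 0.14 and 0.02 apart in sth1-3 and wild type, the difference was -0.83 ± 0.32 (SE), a 1.78-fold lower level, and all 4 values were above background. CDC33, the cap-binding factor eIF4E, measured 9.07 and 10.02 against 10.31 and 10.70.

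Glycolysis and fermentation genes had the same split between the arrays as ribosomal protein genes. Of 18 genes, 8 were higher without overlap (44.4%, against 18% of all genes) and 0 lower, and the mean was higher in all 18. The medians were 1.69 and 0.33 on the sth1-3 arrays, against 1.75 and 0.10 on scc2-4 and 1.74 on wild type at 25C. TDH3, the main glyceraldehyde-3-phosphate dehydrogenase, measured 12.50 and 10.69 in sth1-3 and 10.23 and 10.28 in wild type. ENO2, an enolase, measured 12.13 and 10.75 against 9.98 and 10.05. In both genes the distance between the sth1-3 arrays exceeded the distance of replicate 2 from wild type. In the fit with the set term the median of the 18 genes was 0.40. Hexose transporters had medians of 0.73 and 0.16 over 17 genes, with 6 higher without overlap (35.3%, against 18% of all genes). Their pooled median of 0.44 was 0.13 in the fit with the set term and 0.13 where a gene's probe sets were averaged.

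Seripauperins are small wall proteins of a large family that cells make with little oxygen. Over 19 such genes and other anaerobic wall genes, 8 were lower without overlap (42.1%, against 18.8% of all genes) and 1 higher (5.26%, against 18%). PAU23 measured 11.98 and 12.86 in sth1-3 and 14.20 and 14.19 in wild type, a 3.43-fold lower level with a difference of -1.78 ± 0.57 (SE). All 4 values were far above background, and the wild type arrays were 0.01 apart. PAU2 measured 9.93 and 10.03 against 10.63 and 11.16, and PAU24 10.81 and 11.90 against 12.08 and 12.37, both with shared probe sets. PAU17 overlapped between the groups, at 10.90 and 13.75 against 14.06 and 12.90. The median of the list was -0.96 on replicate 1 and -0.18 on replicate 2, and it was -1.10 and -0.02 on scc2-4 and -1.07 on the wild type 25C array. The pooled median was -0.60, and -0.03 in the fit with the set term. PAU23 gave 12.20 and 13.94 on scc2-4 and 12.15 at 25C, so sth1-3 replicate 2 was the lowest of the 4 arrays outside the 3-array set.

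The remaining genes with wide gaps among those lower in sth1-3 shared no list. HEM1, the enzyme of the first step of haem synthesis, measured 8.92 and 9.13 in sth1-3 and 10.06 and 10.08 in wild type, close to the background level there. GRR1, the F-box protein of a ubiquitin ligase that couples glucose to the turnover of cyclins and regulators, measured 9.02 and 9.60 against 10.52 and 10.43. GLY1, a threonine aldolase that makes glycine, measured 8.61 and 9.34 against 10.10 and 10.31. These 3 genes were above background on both wild type arrays and neither sth1-3 array. The same held for EAR1, an adaptor of the ubiquitin ligase Rsp5 (9.14 and 9.66 against 10.41 and 10.75), KIN1, a kinase of polarised growth (9.59 and 9.51 against 10.22 and 10.64), and MLF3 (9.52 and 9.28 against 10.17 and 10.51). It also held for SHE1, a protein of spindle microtubules (9.24 and 9.35 against 10.09 and 10.29), and SMP3, a mannosyltransferase of the GPI anchor pathway (8.30 and 9.46 against 10.14 and 10.17). YDR124W measured 9.24 and 10.20 against 10.89 and 10.79. Their bounds were small, from at least 1.04-fold lower for HEM1 to at least 1.48-fold lower for EAR1. HEM12, a later enzyme of haem synthesis, was higher, at 9.56 and 9.06 against 7.68 and 7.32, with all 4 values under the background level. RBA50, an assembly factor of RNA polymerase II, measured 8.18 and 8.66 against 9.60 and 9.80, also under it.

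Chaperone and stress genes showed no common direction on replicate 2. The 25 chaperone genes of the heat shock factor Hsf1 had a median of 0.84 on replicate 1 and -0.05 on replicate 2, and 8 were higher without overlap (32%, against 18% of all genes). HSP82, an Hsp90 chaperone, was one of them, at 10.46 and 10.27 in sth1-3 and 9.37 and 9.78 in wild type. HSP12, a membrane-binding stress protein under Msn2 and Msn4, measured 10.77 and 11.26 against 10.51 and 9.45. RTN2 (9.72 and 10.63 against 10.88 and 11.26) and PNC1 (8.95 and 9.98 against 10.16 and 10.12), of the same list, were lower without overlap. Over 27 genes of the Msn2 and Msn4 response the median was -0.02 on replicate 1 and 0.05 on replicate 2. Of the 27, 8 were higher without overlap (29.6%, against 18% of all genes) and 5 lower (18.5%, near 18.8%). KAR2, the chaperone of the endoplasmic reticulum, measured 10.82 and 10.48 against 10.01 and 10.14, and the 17 genes of the unfolded protein response had 4 higher and 5 lower without overlap (23.5% and 29.4%, against 18% and 18.8% of all genes). For the 34 proteasome genes the medians were 0.62 and 0.01.

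Cell cycle and mating genes were mostly lower in the median, by small amounts. The 19 genes of G2/M had a median of -0.24 on replicate 1 and -0.33 on replicate 2, and 7 were lower without overlap (36.8%, against 18.8% of all genes) and 2 higher (10.5%, against 18%). None of the 19 was above background on either sth1-3 array. Over 20 M/G1 and daughter cell genes the medians were -0.07 and 0.0043. Of these, 4 were lower without overlap (20%, near the 18.8% of all genes) and 3 higher (15%, near 18%). Over 33 genes of G1/S the medians were -0.04 and -0.22. In that list 7 were lower without overlap (21.2%, near the 18.8% of all genes) and 2 higher (6.06%, against 18%). On replicate 2 a total of 18 G1/S genes were below both wild type arrays (54.5%, against 36.5% of all genes). ASF1, a histone chaperone expressed at that stage, measured 9.86 and 10.20 against 10.45 and 10.57, and POL1, the catalytic subunit of DNA polymerase alpha, 10.03 and 10.30 against 9.64 and 10.02. PCL2, a G1 cyclin, measured 9.64 and 10.51 against 10.62 and 10.91. Histone genes had 4 of 10 higher without overlap (40%, against 18% of all genes) and medians of 0.60 and 0.11. Of 22 pheromone response genes, 12 were lower without overlap (54.5%, against 18.8% of all genes) and 4 higher (18.2%, against 18%), with medians of -0.48 and -0.12. GPA1, the G protein subunit that the pheromone receptors release, was among the higher ones, at 10.77 and 10.33 against 10.20 and 10.08. The strains differ in mating type, and the array hardly measured the genes that mark it. Of the genes specific to a cells 0 of 7 were above background on any of the 7 arrays, and of those specific to alpha cells 1 of 6. The mean over the a-specific genes was 8.35 to 8.38 in sth1-3 and 8.43 to 8.64 in wild type, and over the alpha-specific genes 8.57 to 8.90 and 8.69 to 8.72. The part of the mating type in these results was not tested.

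**Figure D4:**
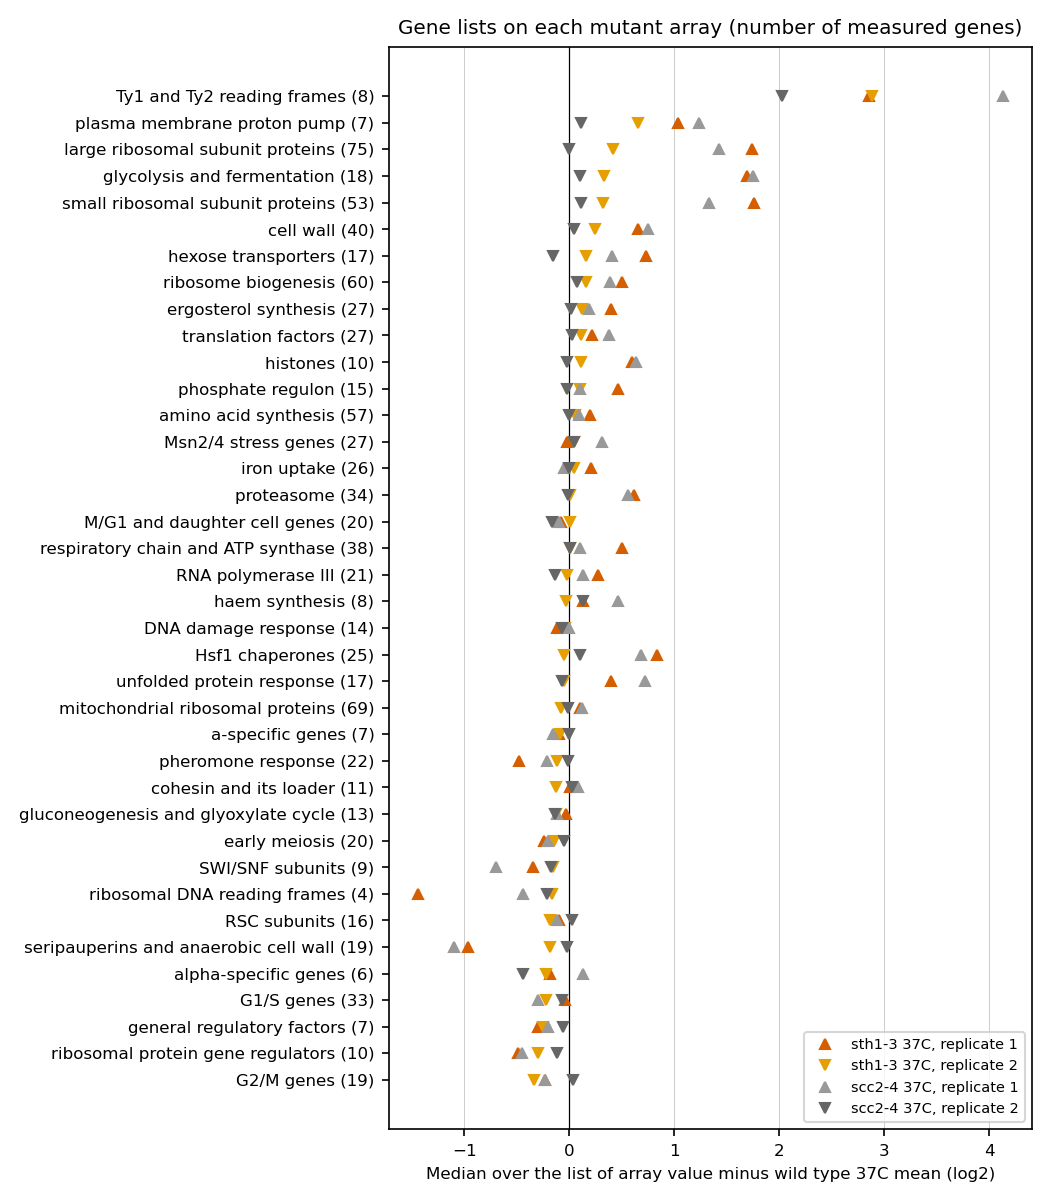
Median over each gene list of the log2 signal on a mutant array minus the wild type 37C mean (horizontal axis, log2), with the number of measured genes in brackets. Upward triangles mark arrays of the 3-array set and downward triangles the other arrays. Ty reading frames lie at 2.03 or higher on all 4 mutant arrays, whereas ribosomal protein and glycolysis genes lie at 1.33 to 1.76 on the replicate 1 arrays and at 0.0013 to 0.42 on the replicate 2 arrays.

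The comparison was repeated with sth1-3 replicate 2 alone, whose ribosomal RNA and actin controls lay nearer to the wild type arrays than those of replicate 1 did, without matching them (actin 9.16 against 8.60 and 8.61). No gene passed the threshold (0 of 5449, 0%, limma), and 46 genes (0.844%) had a p under 0.05 before adjustment. The lone array was assumed to vary like the other groups. A fit of these 3 arrays only has 1 residual degree of freedom and gives all genes 1 common spread, and it called 13 genes (0.239%). Of the 13, 12 were higher: 7 Ty reading frames, PMA1, PMP1, HEM12, YER138W-A and YDR034C-A. YLR154C-H was the 1 lower gene, at 9.03 against 11.67 and 11.96. In that fit the wild type pair stands for all the spread, and the p-values of variable genes are too small. Replicate 2 lay above both wild type arrays in 1502 genes (27.6%) and below both in 1990 (36.5%).

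Genes above background on replicate 2 were ranked by its gap to the nearest wild type array, and the 8 leading genes in the higher direction were the 8 Ty reading frames. That result depends on the filter, which admits genes through the array where they are high. YER138W-A, PMP1 and HEM12 were under background there and so were left out. The gap of YER138W-A (2.46) was wider than that of every Ty frame but YBL100W-B, YDR261W-B and YAR009C. PMP1 (1.67) had a wider gap than YAR010C (1.63) and YBL005W-A, and HEM12 a wider one than YBL005W-A, the last of the 8. YBL005W-A itself barely passed the filter (10.013 against a background level of 10.012). The gap was widest for YBL100W-B, at 10.12 against 6.76 and 6.40, followed by YDR261W-B, at 11.05 against 8.20 and 7.50. Among genes above background on both wild type arrays, the 8 leading ones in the lower direction were YLR154C-H, PAU23, HEM1, RPG1, GRR1, MLF3, MLP1 and UTR2. RBA50, under background there, had a wider gap than 6 of them. MLP1, a protein of the nuclear pore basket, measured 9.48 on replicate 2 and 9.70 on replicate 1, against 10.26 and 10.57 in wild type. UTR2, a wall enzyme that links chitin to glucan, measured 10.38 and 10.69 on the same arrays, against 11.17 and 11.21. In both genes replicate 2 was the lower of the sth1-3 arrays.

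Set directly against scc2-4, which was also at 37C, sth1-3 differed in 0 genes past the threshold (0 of 5449, 0%, limma). Before adjustment 21 genes had a p under 0.05 (0.385%), with 80 without scc2-4 replicate 1, 101 without scc2-4 replicate 2, 6 without sth1-3 replicate 1 and 630 without sth1-3 replicate 2. The smallest p-values belonged to CRD1, YGP1, INA1, MF(ALPHA)1 and TVP38, each with a higher mean in sth1-3. CRD1, the cardiolipin synthase of mitochondria, measured 9.85 and 9.65 in sth1-3 and 8.79 and 8.60 in scc2-4, under the background level on all 4 arrays. YGP1 measured 10.19 and 9.73 against 8.94 and 8.94. MF(ALPHA)1, which encodes the pheromone of alpha cells, measured 9.58 and 9.14 against 8.77 and 7.19. It was not above background on any of the 7 arrays. The 6 measured alpha-specific genes had a median difference of -0.06 from scc2-4, and the part of the mating type was not tested. The median gene differed by 0.02 between the mutants. For Ty frames, large subunit genes and glycolysis genes the medians of that difference were -0.05, 0.28 and 0.10, beside medians of 2.87, 1.08 and 0.96 for sth1-3 against wild type.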

How the data were processed

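Arrays of 1 colour measured RNA of 7 samples. The deposited values are log2 signals of probe sets. RMA and affy are named in the submitters' processing notes, and RMA corrects the background, equalises the arrays' distributions and summarises probes. Whether all arrays were normalized together is not given in the sources used here. Of 10928 probe sets, 7244 had 1 gene symbol, 1 had several and 3683 were unnamed here, and 5498 of those with 1 symbol were of S. cerevisiae and 1746 of S. pombe. The 47 genes with several probe sets took the one with the highest mean, which left 5449 genes.

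Groups came from the titles. One model with a mean per group over all 7 arrays was fitted with lmFit and eBayes of limma 3.58.1 (R 4.3.3), two-sided, with Benjamini-Hochberg adjustment over all 5449 genes at 0.05, and adjusted p-values in the text come from limma. The procedure was tested on simulated data. Whether replicates were separate cultures is not in the labels, and the p-values therefore rest on the spread between arrays, which may be technical, and the number of arrays limits the precision. Where no array of a group was above background, the fold is a bound. It sets the mean of the brighter group against the mean, per array of the dimmer group, of the higher of the background level and the gene's own value.

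Members and the 38 gene lists (909 of 1036 members measured) were chosen with earlier results of these data known. The text draws its genes from a rule. It takes the 12 widest gaps each way among genes above background on both arrays of a group, and the 10 smallest p-values. It takes the 8 widest gaps each way for replicate 2, among genes above background on it (higher) or on both wild type arrays (lower). It adds the 5 smallest p-values against scc2-4, STH1, SCC2, SCC4, the RSC genes and up to 4 members of each list. Genes named outside it are said to be so. Alternatives were replicate and array set terms, other scalings, filters, probe set means, fewer arrays and other eBayes settings, besides other background levels, whose counts are not reported because that filter admits genes through the group where they are high.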

Additional observations from a re-analysis of the deposited data

How the results depend on the processing

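The count of genes called between sth1-3 and wild type was 0 in the main fit and under the 3 other scalings, the filter on dim genes, probe set means, the 2 groups alone, both other eBayes settings and the leaving out of each replicate (0 to 0). It was 10 with the array set as a term and 1, YDR261C-D, with the replicate number as a block. Same-numbered arrays of the 2 groups deviated in opposite directions (correlation -0.36, 2 pairs), so the numbers do not pair them, and the crossed pairing, chosen after the data were seen, called 0. For sth1-3 replicate 2 alone the count was 13 in the fits of 3 and of 4 arrays and 0 elsewhere. The fit of 4 arrays adds only scc2-4 replicate 2, alone in its group. A lone array adds no spread, so this fit repeats the fit of 3 arrays and is not a separate test. Against scc2-4 the count was 0 under every alternative run, the replicate block included. RSC8 (-0.09) reversed to 0.0044 with cyclic loess and ranged from -0.23 to 0.052 with each replicate left out, and SCC2 (0.08) ranged from -0.16 to 0.33. SFH1 (-0.30) reversed to 0.14 with the array set as a term. PAU17 (-1.16) reversed to 0.07 with that term and to 0.27 without sth1-3 replicate 1. The cause was not tested. The other genes that the rule gave and the report names in its sentences kept their direction under the alternatives run. Low signal over background limits most genes to bounds.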
